A study of Bos taurus with 20 samples.

Results

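The genes described here are 50 genes of the cell cycle, 16 that act in DNA replication and 34 that act in mitosis. They came from a written list of symbols and were not picked by their values, though earlier results of these data were known. Of these, 49 had a probe on the array and were tested on the arrays that compare animals, among 12282 named genes tested there and 15781 on the array. The exception was MKI67, which encodes the Ki-67 antigen of cycling cells and had no probe that could be matched to it. On the chip that compares skin sites, 47 were tested, 15 of replication and 32 of mitosis, since the probes of KIF11 and MCM3 were not well above background there. When a gene had several probes, the brightest one stood for it.

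The study measured skin of cattle on 2-colour arrays. Each biopsy held epidermis, dermis and the connective tissue beneath, and came from the place on the skull where horns form. The animals were 4 polled (born without horns, 3 females and 1 male), 4 scurred (with small loose horns, 1 female and 3 males) and 3 horned (1 female and 2 males). Chips 1 to 4 each set 1 polled, 1 scurred and 1 horned animal against one another on 4 arrays, and horned replicate 2 served on chips 2 and 4. Chip 5 set horn-forming skin against control skin from elsewhere on the skull of polled replicate 3 and scurred replicate 2, with both dye orders. Both of these animals are female. Animals received no treatment named in the labels, and age and breed are not given in the sources used here. On each of the 4 chips, 1 of the polled and scurred pair was female and the other male. In tissue like this, fewer dividing cells and less RNA per dividing cell cannot be told apart.

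A cell that divides first copies its DNA and then separates the copies. Before copying, thymidine and ribonucleotide enzymes supply the building blocks, CDC6 helps load the ring of MCM proteins at origins, and CDC45 with the GINS complex turns that ring into a working helicase. Mitosis is driven by CDK1 with cyclins A and B, held back by a checkpoint at the kinetochores, and ended when the anaphase promoting complex has securin and the cyclins destroyed. In skin, the cells that divide are mainly basal keratinocytes and the matrix of growing hair follicles, and most of these genes are silent or low in cells that have stopped dividing.

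Each value rests on a probe of 60 bases on the array. Whole probes are shown for genes of the anaphase switch, its checkpoint and its kinase, and for 3 dim genes, because these carry the contrast between members that were well measured and members that were not. At least 1 forward reading frame of each is free of stop codons, which alone does not show that this strand is coding. All probes are given 5′ to 3′ in lower case with nothing marked.
UBE2C: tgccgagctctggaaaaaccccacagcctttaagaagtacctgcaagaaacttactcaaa
CDC20: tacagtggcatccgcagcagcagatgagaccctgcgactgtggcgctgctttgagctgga
PTTG1: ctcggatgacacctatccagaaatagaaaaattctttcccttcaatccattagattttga
TTK: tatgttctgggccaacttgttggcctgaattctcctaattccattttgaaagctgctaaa
AURKB: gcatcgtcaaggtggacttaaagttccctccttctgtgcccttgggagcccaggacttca
NUF2: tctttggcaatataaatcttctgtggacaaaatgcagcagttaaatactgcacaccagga
BUB1B: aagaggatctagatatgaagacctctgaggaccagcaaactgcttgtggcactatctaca
KIF11: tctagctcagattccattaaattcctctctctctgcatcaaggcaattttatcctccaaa

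The first 30 of the 60 bases are shown for RRM2, CCNB1, CDK1 and TOP2A, whose levels are given animal by animal, and for both probes of CCNE2, which gave different values.
RRM2: accacaaggctgtaggaagacatcagactc
CCNB1: gcaaaggtgtaacttgtgaactttggaata
CDK1: tgtgttgtgtcaagagcagataattgtact
TOP2A: tttccatttataaacttttcaagaccttcc
CCNE2, brighter probe: actgcctgaaatattccattagtatcctta
CCNE2, other probe: acacttgacctaaacttctattttcttaag

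The probes of NUF2, BUB1B, KIF11 and MCM3 lay near background, with a signal well above it in 8, 3, 4 and 3 of the 11 animals, and that of TPX2 in 10. In every horn type at least 2 array channels had a spot of each of them well above background, so that none had only a bound. For MCM3 these were 7 of 12 channels in polled, 2 of 8 in scurred and 7 of 12 in horned animals. Its scurred values thus rest mostly on signal near background. The other 44 genes were well above background in all 11 animals. The probes of the 49 genes had a median GC content of 41.67%, against 43.33% over all probes tested.

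One animal stood apart in nearly all of these genes and is described first, since it bears on every comparison with scurred animals. Scurred replicate 1 had the highest level of the 11 animals for 45 of the 49 genes, 13 of 16 in replication and 32 of 33 in mitosis. Over all probes tested it was the highest animal for 21% and the lowest for 3798 of 15712, more than any other animal at either end. This RNA thus stood apart across the array and in both directions. Among the 49 genes it was highest for all but TYMS, MCM6, CCNE2 and KIF11. For CCNE2, which encodes the G1/S cyclin E2, it was the lowest animal. Taken against each gene's own median over 11 animals, its replication genes lay 1.01 higher and its mitosis genes 1.67 higher on the log2 scale (medians over genes), while all probes tested had a median of 0. No other animal had a median above 0.27 in either class.

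**Figure D1:**
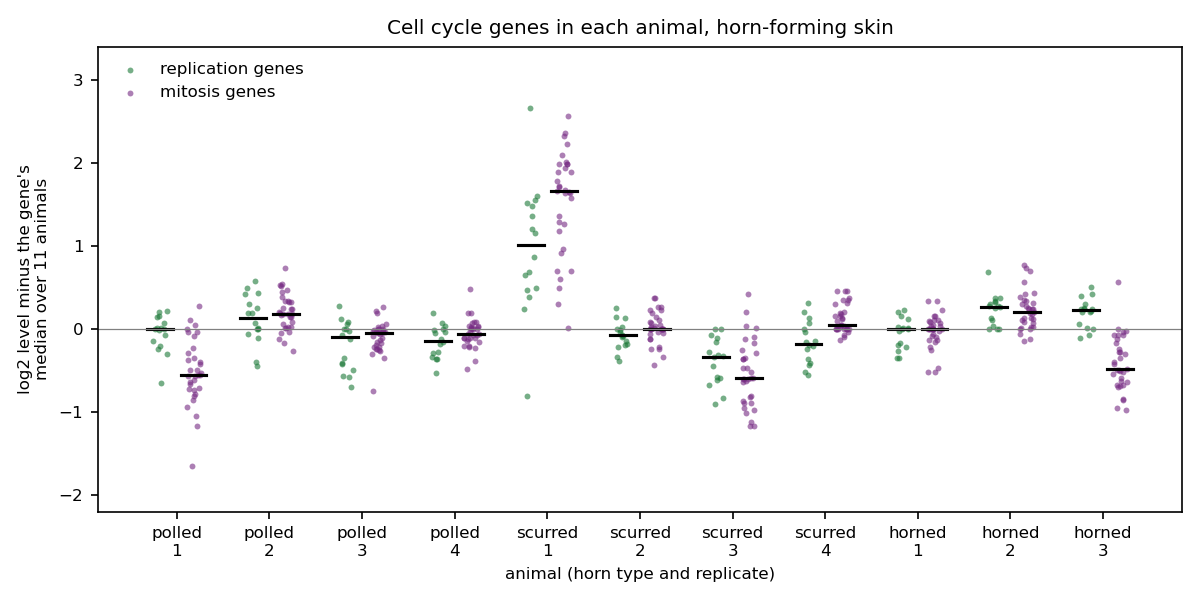
Level of each cell cycle gene in each of the 11 animals, as log2 level minus that gene's median over the animals. Points are genes, green for replication (16) and purple for mitosis (33), and black lines are class medians; scurred replicate 1 lies at 1.01 and 1.67, and polled replicate 1, scurred replicate 3 and horned replicate 3 have mitosis medians of -0.55, -0.59 and -0.48.

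The levels of CDK1, the kinase that starts mitosis, show the distance. In polled animals 1 to 4 its log2 level was 7.48, 8.18, 8.11 and 8.04, in scurred animals 10.17, 8.15, 8.35 and 8.60, and in the 3 horned animals 7.93, 8.85 and 8.08. Scurred replicate 1 was the highest by more than 1 log2 unit, and the other 10 animals overlapped whatever their horn type. On its chip, the array of horned over scurred gave CDK1 a log2 ratio of -2.34 and the array of scurred over polled gave 2.75, so that both arrays with this RNA show it.

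RRM2, the small and cell cycle regulated subunit of ribonucleotide reductase, had levels of 9.30, 10.18, 9.03 and 9.33 in polled, 12.27, 9.59, 8.78 and 9.91 in scurred and 9.60, 9.97 and 9.84 in horned animals. Again scurred replicate 1 alone was far up, and scurred replicate 3 was the lowest of all. CCNB1, cyclin B1, ran from 6.83 in polled replicate 1 to 11.05 in scurred replicate 1, the widest gap among these genes. In polled animals its levels were 6.83, 9.02, 7.74 and 8.56, in scurred 11.05, 8.50, 7.32 and 8.79, and in horned 8.40, 8.48 and 7.62. The horned animals lay within the range of the polled animals.

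TOP2A, the topoisomerase that untangles chromosomes, had levels from 9.86 in replicate 1 to 11.55 in replicate 2 of the polled animals, with the other polled animals between them. It was at 12.66, 11.25, 9.90 and 11.15 in scurred and at 11.02, 11.59 and 10.38 in horned animals. PCNA, the sliding clamp of the polymerases, varied far less, with 8.31, 7.90, 7.87 and 8.33 in polled, 8.54, 8.33, 8.30 and 7.90 in scurred and 8.28, 8.41 and 8.19 in horned animals. Its highest value was also in scurred replicate 1, yet only 0.34 above the horned animal of that chip. CCNE2 went the other way, at 7.75 in scurred replicate 1 against 8.18, 8.56 and 8.32 in the other scurred animals, 8.63, 8.63, 8.84 and 8.04 in polled and 8.22, 8.70 and 8.78 in horned animals. The other CCNE2 probe gave scurred replicate 1 a level 0.53 above horned replicate 1 where the brighter probe gave -0.51. The correlation of the 2 probes over 11 animals was -0.01, so the direction for CCNE2 depends on the probe.

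**Figure D2:**
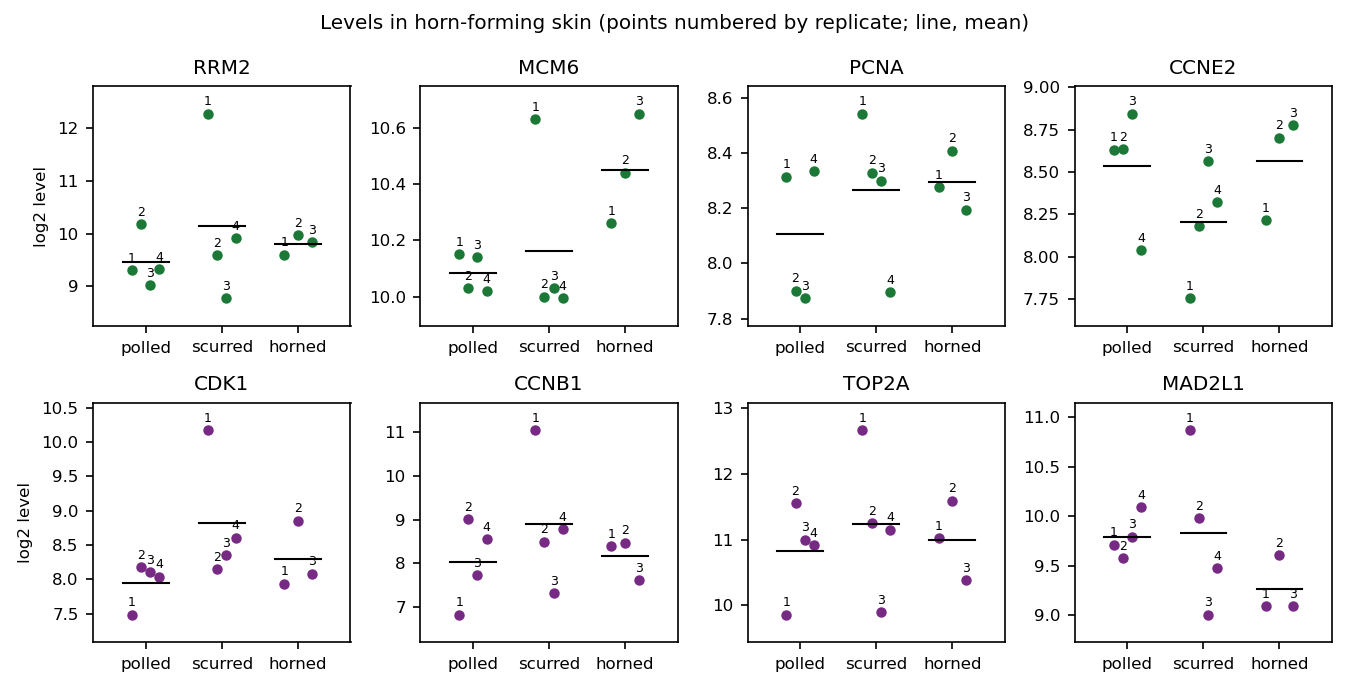
Log2 level of 8 cell cycle genes in horn-forming skin of polled, scurred and horned animals, with points numbered by replicate and lines at the group mean (each panel has its own axis). Scurred replicate 1 is the top point for RRM2, PCNA, CDK1, CCNB1, TOP2A and MAD2L1 and the bottom point for CCNE2; MCM6 of the 4 polled animals lies between 10.02 and 10.15, under the 3 horned animals.

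Against horned replicate 1 on the same chip, all 33 mitosis genes and 15 of 16 replication genes were higher in scurred replicate 1. The difference was over 2 log2 units for 6 genes: CCNB1 at 2.69, RRM2 at 2.63, CDK1 at 2.32, UBE2C at 2.17, CKS2 at 2.04 and NUSAP1 at 2.01. UBE2C passes ubiquitin on to the anaphase promoting complex's targets, CKS2 is a small partner of CDK1, and NUSAP1 binds spindle microtubules. The second probe of NUSAP1, also well above background in all 11 animals, gave 0.06, so its value depends on the probe. Near the bottom were KIF11 at 0.04, MCM3 at 0.28, TPX2 at 0.31, PCNA at 0.34 and MCM6 at 0.39, of which KIF11, MCM3 and TPX2 are dim. The replication genes ran up to 1.58 for FEN1 beside RRM2, with a class median of 1.10 against 1.77 for mitosis.

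Markers of basal keratinocytes moved with these genes in this animal. Of 11 such markers measured, 9 were above their own median over animals in scurred replicate 1 and 7 were highest there, with a median deviation of 1.89. Their medians ran from 0.00 to 0.69 in polled, from -0.69 to 0.45 in the other scurred and from -0.61 to -0.05 in horned animals. The 11 markers of the upper epidermis were all above their medians in it, by a median of 2.68, and scurred replicate 2 and polled replicates 1, 2 and 4 had 1.95, 1.44, 1.61 and 1.31. The 9 lymphocyte markers measured lay 0.51 up in scurred replicate 1, the 5 melanocyte markers 2.77 up, with 4 highest there, the 4 red cell markers 1.40 up, with all 4 highest in polled replicate 1, and the 10 hair matrix and shaft markers 0.11 up, with 8 of those 10 highest in polled replicate 2. Fibroblast markers lay at -0.61, endothelium markers at -0.19 and macrophage and muscle markers at 0. The part of these markers in the levels of the cell cycle genes was not tested.

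The question put to chips 1 to 4 was whether skin at the horn-forming place differs between polled, scurred and horned cattle. For these genes no difference between horn types passed the test. By limma's moderated test on the within-chip differences, with sex as a term, 0 of 49 genes had an adjusted p under 0.05 in polled against horned, scurred against horned or scurred against polled. Over all probes tested the adjusted test called 0.00636%, 0% and 0% in these comparisons. At an unadjusted p under 0.05 the count was also 0 of 49 in each, where 9.3%, 3.73% and 5.99% of all probes fell under it. The lowest adjusted p among the genes was 0.63, 0.9998 and 0.87.

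Polled against horned, the replication genes had a median log2 difference of -0.12, with 12 of 16 lower, and the mitosis genes of -0.00, with 17 of 33 lower, against 0.01 over all probes. The nearest to a difference was MCM6, a subunit of the helicase ring, with -0.32 ± 0.20 (SE, adjusted p = 0.63). Its levels were 10.15, 10.03, 10.14 and 10.02 in polled and 10.26, 10.44 and 10.65 in horned animals. It was the only one of the 49 genes whose polled and horned levels did not overlap, and over all probes 9.48% did not overlap. TYMS, thymidylate synthase, differed by -0.50 ± 0.32 (SE, adjusted p = 0.65). It was about 1 log2 unit under horned replicate 2 in both polled animals set against it (-1.14 and -1.02). Against the other horned animals it was at 0.13 and -0.14. Horned replicate 2 had the highest level of all animals, 12.16. Polled replicates 2 and 4, at 11.02 and 11.18, lay under polled replicates 1 and 3, at 11.47 and 11.56. The part of each animal in the difference was not tested. MAD2L1, the checkpoint protein MAD2, had the largest value the other way, 0.46 ± 0.38 (SE, adjusted p = 0.73), with all 4 polled animals above the horned animal of their chip, by 0.71, 0.02, 0.77 and 0.52. CKS1B, another partner of CDK1, had -0.26 ± 0.24 and MCM2 -0.39 ± 0.42 (SE, adjusted p = 0.76 and 0.80). KIF20A, a motor of the central spindle, had -0.36 ± 0.68 (SE, adjusted p = 0.90), with polled replicate 1 at -1.25 and polled replicate 3 at 0.59. TOP2A had -0.13 ± 0.65, CDK1 -0.22 ± 0.55 and PCNA -0.19 ± 0.19 (SE), each smaller than or near its error.

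The count of 0 in polled against horned moved when an animal was left out. Without scurred replicate 1, MCM6 (-0.36 ± 0.12, SE) and MAD2L1 (0.36 ± 0.12, SE) were under an unadjusted p of 0.05, 2 of 49 where 11.4% of all probes were, and both had an adjusted p of 0.37. Without horned replicate 1 there were 4 (TYMS, MCM2, MCM6 and CKS1B, all lower in polled animals) where 6.96% of all probes were called, and without chip 1, the only chip scanned on its day, there were 6 (those 4, CDC6 and MAD2L1) against 10.7% of all probes. The class medians of this comparison also turned on single animals and chips. Without horned replicate 2 they were 0.10 in replication and 0.39 in mitosis, and without polled replicate 1 they were 0.04 and 0.35. Without chip 2 they were -0.45 and -0.48. All polled animals left were then female and all scurred animals male, so that sex and horn type were hardly separable.

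Scurred against horned, all 33 mitosis genes had a positive value, with a median of 0.31 and a range from 0.02 to 0.79, and the replication genes had a median of -0.00, with 8 of 16 on each side. All probes tested had a median of 0.01. CKS2 had the largest value, 0.79 ± 0.46, and MAD2L1 the lowest p, with 0.63 ± 0.36 (SE, adjusted p = 0.9998 for both). Levels of CKS2 were 12.25, 10.28, 10.27 and 10.61 in scurred against 10.26, 10.12 and 9.77 in horned animals, the only gene whose scurred and horned levels did not overlap, where 4.52% of all probes did not. Scurred replicate 3 at 10.27 and horned replicate 1 at 10.26 were next to each other. Differences of the other named genes were within 2 standard errors: CCNB1 had 0.63 ± 0.76, CDK1 0.57 ± 0.53, RRM2 0.28 ± 0.63, TOP2A 0.19 ± 0.62 and PCNA 0.01 ± 0.18 (SE). CCNE2 had -0.36 ± 0.23 and MCM6 -0.28 ± 0.19 (SE). The other CCNE2 probe gave -0.03.

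Without scurred replicate 1 the picture of scurred against horned animals turned. That animal was singled out by its high levels in these same genes, so leaving it out had to lower their scurred values. The counts without it describe the animals left and are no test of horn type. All 16 replication genes were then lower in scurred animals, with a median of -0.38, and 29 of 33 mitosis genes were lower, with a median of -0.18. At an unadjusted p under 0.05, 7 of 49 genes were lower and 0 higher, where 3.44% of all probes were called in either direction. These were RRM1 (-0.39), RRM2 (-0.55), MCM6 (-0.48), CDC6 (-0.58), GINS2 (-0.65) and FEN1 (-0.36) among replication genes and NUSAP1 (-0.71) in mitosis, whose second probe gave -0.07. None passed after adjustment over all probes (adjusted p = 1 for each). Without all of chip 1 the count was 8, all replication genes (RRM1, RRM2, TK1, MCM4, MCM5, MCM6, CDC6 and FEN1), against 4.15% of all probes. The levels of scurred replicates 2 to 4 and the horned animals did not overlap for 8 genes, with TK1, MCM5, MCM6, MCM7, CDC6, GINS2 and NUF2 lower and CKS2 higher, and did not for 9.64% of all probes. Scurred replicates 2 and 4 were measured against the same horned animal, replicate 2, and these comparisons are not independent of each other.

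MCM6 shows this most evenly. Against the horned animal of its chip it was at -0.11, -0.37, -0.51 and -0.45 in polled replicates 1 to 4 and at 0.39, -0.50, -0.60 and -0.52 in scurred replicates 1 to 4. Only scurred replicate 1 was above the horned animal. CDC6, which loads the helicase, was at 0.01, -0.20, -0.81 and -0.50 in polled and at 1.37, -0.45, -1.08 and -0.34 in scurred animals. GINS2, a subunit of the GINS complex, was at -0.47, 0.17, -0.50 and -0.43 in polled and at 1.34, -0.22, -0.70 and -0.82 in scurred animals. Both groups share their horned animals, so the low values on 1 chip have that animal in common.

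Scurred against polled, 30 of 33 mitosis genes and 13 of 16 replication genes had a positive value, with medians of 0.30 and 0.10 against -0.01 over all probes. CDK1 had 0.80 ± 0.54, CKS2 0.68 ± 0.47, CCNE2 -0.32 ± 0.24, CKS1B 0.30 ± 0.23, PCNA 0.20 ± 0.19, MCM2 0.35 ± 0.40, RRM2 0.41 ± 0.64 and TOP2A 0.32 ± 0.63 (SE). The other CCNE2 probe gave -0.18 in polled and -0.03 in scurred against horned animals. The direction for CCNE2 thus depends on the probe in this comparison too. On chip 1 the scurred animal exceeded the polled animal by a median of 2.29 in mitosis genes, and on chips 2, 3 and 4 by -0.15, -0.39 and 0.08. Without scurred replicate 1, singled out by these same genes, the medians were -0.10 for mitosis and -0.21 for replication. Then 3 of 49 genes (TK1, PTTG1 and NUSAP1, all lower in scurred animals) were under an unadjusted p of 0.05, where 9.06% of all probes were. Here too the count is no test of horn type. With all animals kept, the second probe of NUSAP1 gave -0.09 in polled and -0.04 in scurred against horned animals. Since the scurred and the polled animal of each chip were of opposite sex, the chip-wise values of this comparison hold both differences.

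**Figure D3:**
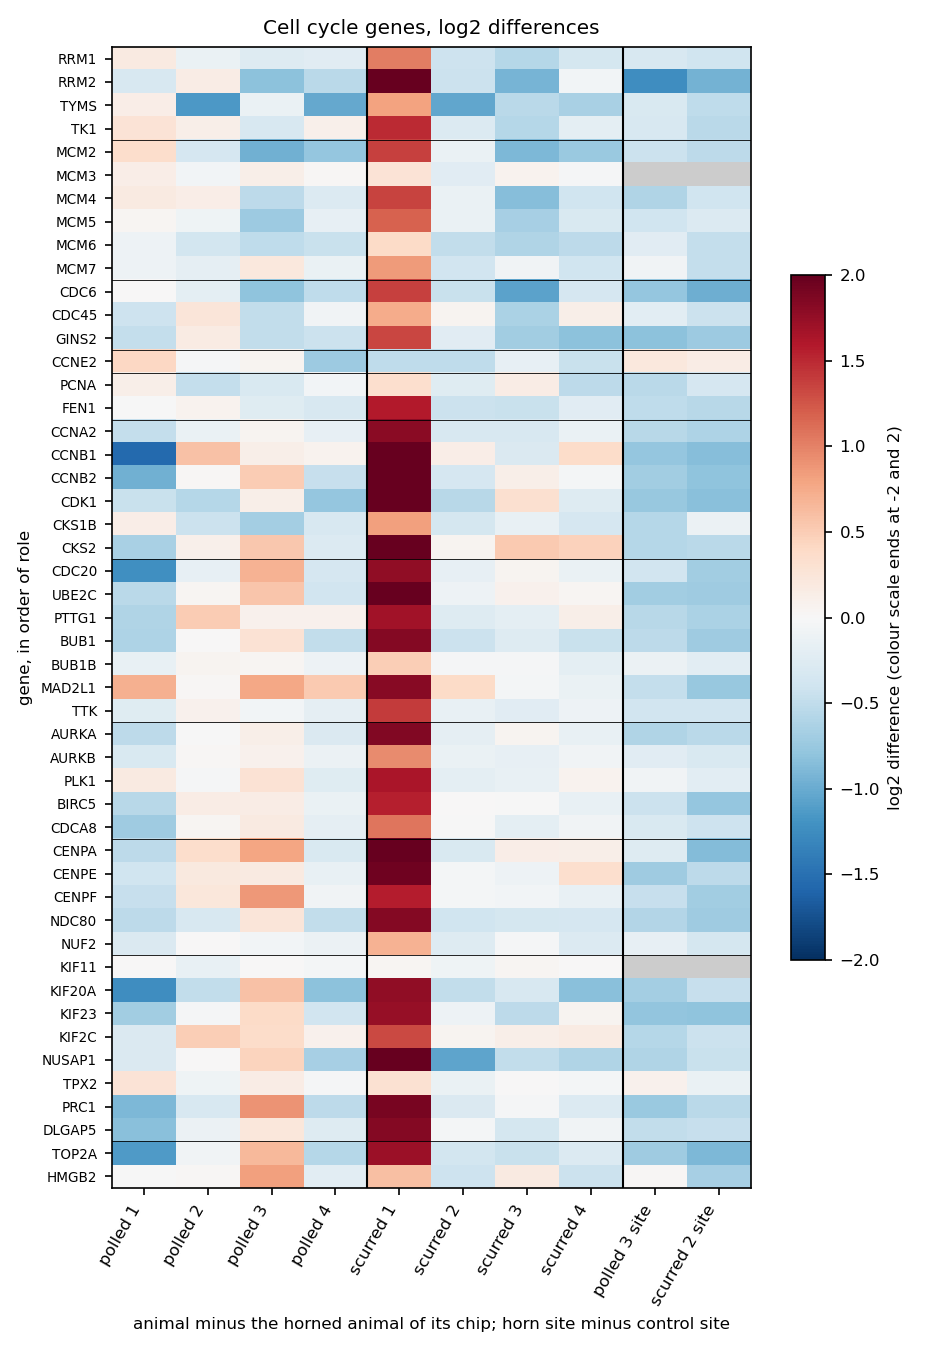
Log2 differences of 49 cell cycle genes in order of role (thin lines part the roles): 4 polled and 4 scurred animals, each minus the horned animal of its chip, then horn site minus control site in 2 animals, with grey for genes not tested. Red is higher and blue lower; the column of scurred replicate 1 is red for 48 of 49 genes, and the site columns are blue for most.

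The animals differed among themselves beyond that 1 animal, and mitosis and replication genes did not always go together. Over the 11 animals the median SD of a gene's level was 0.63 for mitosis and 0.42 for replication genes, against 0.30 over all probes. Without scurred replicate 1 these were 0.36, 0.30 and 0.26. Polled replicate 1 was the lowest animal for 15 of 33 mitosis genes and scurred replicate 3 for 12. In polled replicate 1, CCNB1 (-1.56), KIF20A (-1.25), CDC20 (-1.22) and TOP2A (-1.14) lay more than 1 log2 unit under horned replicate 1, and 28 of 33 mitosis genes were lower (median -0.52). Its replication genes were higher in 10 of 16 (median 0.08), with MCM2 at 0.34 and TK1 at 0.27. CDC20, which starts anaphase, and KIF20A are both made late in the cycle.

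Polled replicate 3 showed the split the other way round only when set against its horned animal. Against the medians over animals, its mitosis genes lay at -0.05 and its replication genes at -0.09. Against horned replicate 3, 30 of its 33 mitosis genes were higher (median 0.24), led by PRC1 at 0.89, CENPF at 0.87, HMGB2 at 0.81 and CENPA at 0.79, while 13 of 16 replication genes were lower (median -0.41), down to MCM2 at -0.96, RRM2 and CDC6 at -0.81 and MCM5 at -0.72. PRC1 bundles microtubules of the midzone, CENPF sits on kinetochores and CENPA is the histone that marks centromeres. Horned replicate 3 itself had mitosis genes at a median of -0.48 and replication genes at 0.23 against their medians over animals, with 1 of 33 and 13 of 16 above. Scurred replicate 3, on the same chip, had replication genes down (median -0.58, 14 of 16 lower) and mitosis genes near horned replicate 3 (median -0.05). So the difference between the classes on chip 3 appears in both animals set against horned replicate 3.

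Chips 2 and 4 share horned replicate 2. Against it, the medians of polled replicates 2 and 4 were 0.01 and -0.24 in mitosis and -0.07 and -0.30 in replication genes, and those of scurred replicates 2 and 4 were -0.17 and -0.13 in mitosis and -0.33 and -0.37 in replication genes. NUSAP1 was low in scurred replicate 2 by its brighter probe (-1.06), and KIF20A in polled and scurred replicate 4 (-0.82 and -0.83). PLK1, the polo-like kinase, ran from -0.24 to 0.28 against the horned animal in all but scurred replicate 1, where it was at 1.63.

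Male against female, 0 of 49 genes passed either the adjusted or the unadjusted threshold in limma's test, where 0.0191% and 2.09% of all probes did. In males 29 of 33 mitosis genes were higher (median 0.19), as were 12 of 16 replication genes (median 0.09). Without chip 2 these medians were -0.52 and -0.38, but the polled animals left were then all female and the scurred all male. CCNB1 had the largest value, 0.70 ± 0.69, followed by RRM2 with 0.54 ± 0.57 and PTTG1, securin, with 0.51 ± 0.41 (SE, adjusted p = 1 for each). CDC45 had 0.29 ± 0.23, TOP2A 0.23 ± 0.56, CDK1 0.16 ± 0.48, PCNA -0.16 ± 0.17 and MAD2L1 -0.33 ± 0.33 (SE). Scurred replicate 1, singled out by its levels in these genes, is a male. Without it the medians were 0.06 and 0.02, and MAD2L1 (-0.43 ± 0.10, SE) and PTTG1 (0.37 ± 0.13, SE) were under an unadjusted p of 0.05, 2 of 49 where 2.86% of all probes were.

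Chip 5 asked how skin at the horn-forming place differs from other skin of the same head. Here the cell cycle genes were lower at the horn site in both animals. The median log2 difference was -0.57 for the 32 mitosis genes and -0.43 for the 15 replication genes, against -0.01 over all probes. Of 47 genes, 44 were lower at the horn site in both animals, where 26.5% of all probes were, and 42 were lower on all 4 arrays, where 10.7% of all probes were. At an unadjusted p under 0.05, 32 of 47 genes were lower and 0 higher, while 4.71% of all probes were called in either direction and 2.06% as lower. After adjustment over all 15290 probes 0 of 47 passed (lowest adjusted p = 0.96), as did 0% of all probes. The test has 2 animals, both female and neither horned, so it does not cover males or horned cattle. Its standard errors were drawn toward a spread shared over all probes. TTK, at -0.39 and -0.38 in the 2 animals, still had an SE of 0.12. The p-values thus do not measure the spread between these 2 animals alone, and 2 animals limit what they can show.

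**Figure D4:**
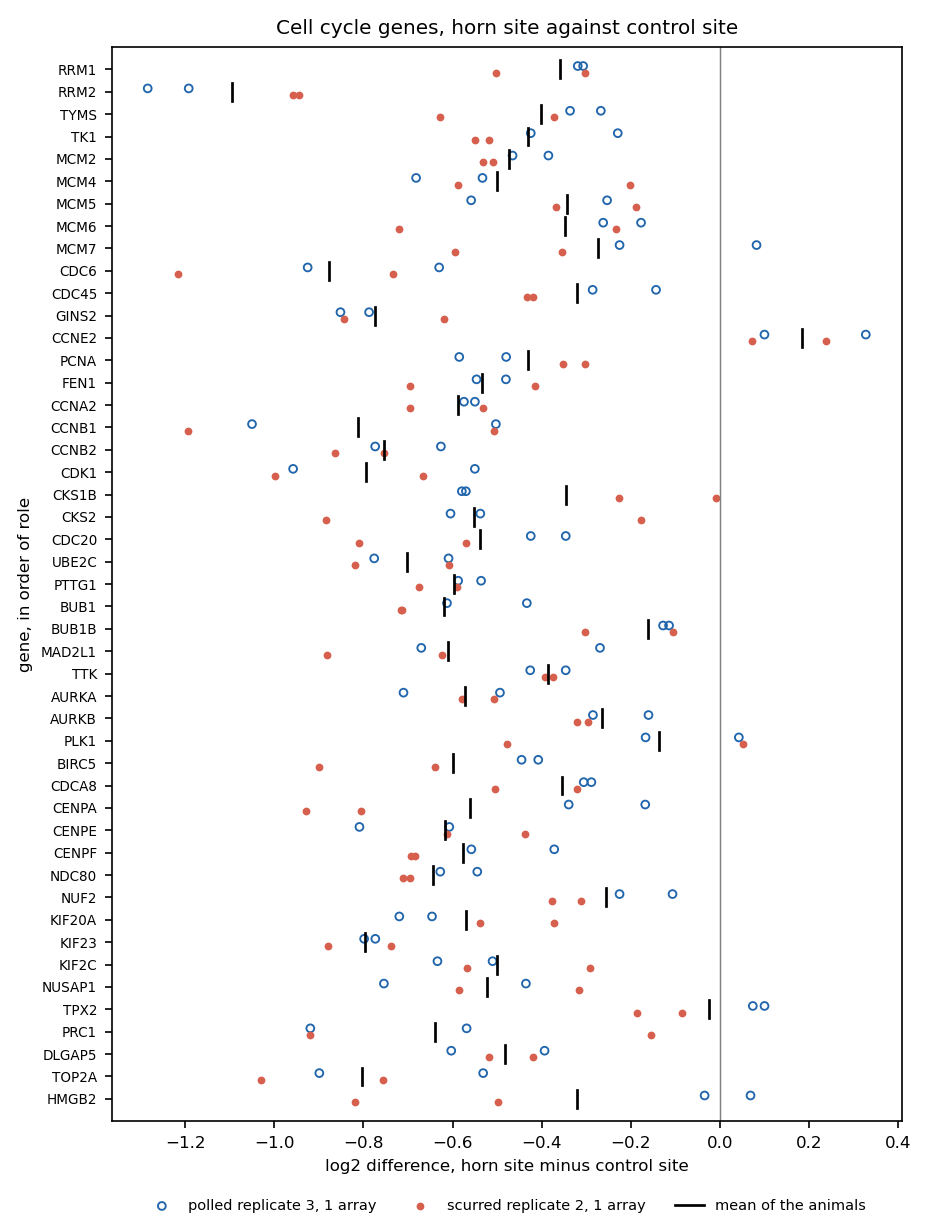
Log2 difference between horn site and control site for 47 cell cycle genes in order of role, on each of 4 arrays: open blue circles for the 2 arrays of polled replicate 3, red points for the 2 of scurred replicate 2, black ticks for the mean of the animals. Nearly all points lie left of 0; RRM2 is lowest with a mean of -1.09, and CCNE2 is the only gene with all 4 arrays above 0.

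Among the genes of nucleotide supply, RRM2 had the largest difference of all. It was at -1.28 and -1.19 on the arrays of polled replicate 3 and at -0.96 and -0.94 on those of scurred replicate 2, a mean of -1.09 ± 0.14 (SE, adjusted p = 0.96). All 4 arrays lie well under 0, and those of polled replicate 3 lie lowest. Thymidine kinase TK1 had -0.43, TYMS -0.40 and RRM1, the large subunit of the reductase, -0.36. TYMS and TK1 were under an unadjusted p of 0.05 and RRM1 was just over it.

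All 5 measured MCM subunits were lower at the horn site, from -0.27 for MCM7 to -0.50 for MCM4, with MCM2 and MCM4 under an unadjusted p of 0.05. MCM7 was above 0 on 1 array of polled replicate 3 (0.08). Of the origin factors, CDC6 and GINS2 were lower than any of these. CDC6 was at -0.63 and -0.93 in polled replicate 3 and at -0.73 and -1.22 in scurred replicate 2, a mean of -0.88 ± 0.13, and GINS2 had a mean of -0.78 ± 0.12 (SE, adjusted p = 0.96 for both). CDC45, the other origin factor, had -0.32 ± 0.13 (SE). At the fork, FEN1, which trims the flaps of the lagging strand, had -0.53 ± 0.12 and PCNA -0.43 ± 0.13 (SE), with PCNA at -0.48 and -0.59 in polled replicate 3 and at -0.35 and -0.30 in scurred replicate 2.

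CCNE2 was the 1 gene above 0 in both animals, at 0.21 and 0.16. Its other probe gave -0.40, so here too the direction depends on the probe. BIRC5 and NUSAP1 also had a second tested probe, which gave smaller differences, -0.15 where the brighter probe gave -0.60 for BIRC5 and -0.02 where it gave -0.52 for NUSAP1. Both BIRC5 probes were well above background in all 11 animals and correlated at 0.90 over them, while those of NUSAP1 correlated at 0.32.

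The engine of mitosis was lower as a group, with a median of -0.67 over 6 genes. CCNB1 was at -0.50 and -1.05 on the arrays of polled replicate 3 and at -0.51 and -1.19 on those of scurred replicate 2, and the larger value came with the horn site in green in both. Its mean was -0.81 ± 0.12 (SE, adjusted p = 0.96). CDK1 was at -0.55 and -0.96 in polled replicate 3 and at -0.67 and -0.9985 in scurred replicate 2, a mean of -0.79 ± 0.12 (SE). CCNB2 had -0.75, CCNA2 -0.59 and CKS2 -0.55, and CKS1B differed between the animals, at -0.57 and -0.12. For CKS2 the arrays of scurred replicate 2 gave -0.88 with the horn site in red and -0.18 with it in green.

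Of the checkpoint and anaphase genes, 6 of 7 were under an unadjusted p of 0.05: UBE2C with -0.70, BUB1 with -0.62, MAD2L1 with -0.61, PTTG1 with -0.60, CDC20 with -0.54 and TTK with -0.39. The probes of UBE2C, PTTG1, CDC20 and TTK are printed above. CDC20 had the widest gap between the animals, at -0.39 in polled replicate 3 and -0.69 in scurred replicate 2. BUB1 and TTK are kinases that act at unattached kinetochores. BUB1B, whose probe is dim, had -0.16. Among the mitotic kinases and the passenger complex, BIRC5 (survivin) had -0.60 and AURKA -0.57, while CDCA8 had -0.36, AURKB -0.27 and PLK1 -0.14, with 1 array of each animal slightly above 0 for PLK1.

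At the centromere, NDC80 had -0.64, CENPE -0.62, CENPF -0.58, CENPA -0.56 and NUF2 -0.26. NDC80 couples kinetochores to microtubules, and it was at -0.59 in polled replicate 3 and -0.70 in scurred replicate 2. CENPA was at -0.25 and -0.87 in these animals, the widest gap between them after HMGB2. Of the spindle genes, KIF23 had -0.80 ± 0.12 (SE, adjusted p = 0.96), with 4 arrays between -0.88 and -0.74. PRC1 had -0.64, KIF20A -0.57, NUSAP1 -0.52, KIF2C -0.50 and DLGAP5 -0.48. For PRC1 the arrays of scurred replicate 2 gave -0.92 with the horn site in red and -0.155 with it in green. TPX2 was near 0, with 0.09 in polled replicate 3 and -0.14 in scurred replicate 2. TOP2A had -0.80 ± 0.13 (SE, adjusted p = 0.96), at -0.53 and -0.90 in polled replicate 3 and at -1.03 and -0.76 in scurred replicate 2. HMGB2, a chromatin protein of dividing cells, was at 0.02 in polled replicate 3 and -0.66 in scurred replicate 2.

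Other genes of the cell cycle, taken from lists of further members of the same machinery, were also mostly lower at the horn site. Of 51 further mitosis genes 50 were lower and 19 were under an unadjusted p of 0.05 (median -0.32), with CDCA5 at -0.83, ANLN at -0.80 and KIF15 at -0.75. Of 37 further replication genes 33 were lower and 8 were under it (median -0.16), with DUT at -0.56, CHAF1A at -0.55 and CDT1 at -0.51. CDCA5 (sororin) holds sister chromatids together, ANLN (anillin) works in the cleavage furrow, KIF15 is a spindle motor, CHAF1A assembles chromatin behind the fork, and CDT1 loads the MCM ring with CDC6. Of 11 cell cycle transcription factors 10 were lower and 7 were under an unadjusted p of 0.05, with E2F2 at -0.97, E2F8 at -0.66 and E2F3 at -0.57. Of 6 G1 cyclins and their kinases 4 were lower and 2 were under it, CDC25A at -0.57 and CCND2 at -0.41. Of 8 CDK inhibitors and pocket proteins 6 were lower and 1 was under it, CDKN1A (p21) at -0.42. Over all probes tested the median difference was -0.01, and 4.71% were under an unadjusted p of 0.05, 2.06% as lower. The lists of 6 and 8 genes are short, and their counts say little. No gene of these lists passed after adjustment.

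Between horn types, polled against horned animals gave 2 of 8 inhibitors and pocket proteins, 1 of 51 further mitosis genes, 1 of 38 further replication genes, 0 of 11 transcription factors and 0 of 6 G1 genes under an unadjusted p of 0.05, where 9.3% of all probes were. These were CDKN1A at 1.86 ± 0.61 and CDKN1C (p57) at -0.67 ± 0.19 among the inhibitors (SE, adjusted p = 0.49 and 0.47), WEE1 at 0.48 in mitosis and CHAF1B at -0.39 in replication. For scurred against horned animals 1 of 38 further replication genes was under it, POLD2 at -0.34, and for scurred against polled animals 1 of 8 inhibitors, CDKN1C at 0.51, where 3.73% and 5.99% of all probes were. The other lists had 0 in these comparisons, and all 5 lists had 0 in male against female. CDKN1A is an inhibitor that arrests the cycle before replication, CDKN1C is an inhibitor tied to growth control, and WEE1 holds CDK1 inactive.

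Markers of other tissue parts differed between the sites as well. All 7 skeletal muscle markers measured were higher at the horn site, with a median of 0.97 in polled replicate 3 and 3.81 in scurred replicate 2, and all 9 macrophage markers were higher, with medians of 0.32 and 1.23. All 9 endothelium markers were higher by their mean over animals, with medians of 0.01 and 0.88, and 9 of 11 fibroblast markers were higher, with -0.09 and 0.57. Of 4 red cell markers 3 were higher, with -0.79 and 1.98, and of 8 lymphocyte markers 6 were, with -0.03 and 0.16. Of 11 basal keratinocyte markers 9 were lower by their mean over animals, with medians of 0.03 and -0.35, and of 5 melanocyte markers 4 were lower, with -0.69 and -0.81. Of 11 markers of the upper epidermis 9 were lower, with -0.70 and 0.29. The 9 hair matrix and shaft markers measured had medians of 0.01 in polled replicate 3 and -1.81 in scurred replicate 2. The medians of the mitosis genes were -0.56 and -0.58 and those of the replication genes -0.41 and -0.48. The part of these tissues in the cell cycle values was not tested.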

How the data were processed

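Skin RNA of 11 animals on 4 chips, and of 2 skin sites of 2 animals on chip 5, was measured on 20 two-colour arrays. The deposited scanner files give intensity values on a linear scale for both dyes, and a log10 ratio of red over green; the scanner software, per the submitters' processing notes, was Feature Extraction 9.5.1. The authors' deposited value matrix holds the same log10 ratios, as a comparison with the scanner files showed, and its column medians ran from -0.019 to 0.00929. Of its columns, 14 ran as red over green and 6 the other way. Spots well above background made up 62.24% to 73.75%, and at most 2 spots an array were saturated. The genome build is not given in the sources used here.

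Normexp (offset 50) and then loess were applied to the mean signals with limma 3.58.1 (R 4.3.3), without control spots and outlier flags, and duplicate spots were averaged. Levels are separate-channel log2 values after Aquantile scaling, and differences are within-chip log2 ratios. Probes were named from the description in the file, then from RefSeq identifiers of ARS-UCD2.0, then from the file's symbol (17380 of 21475 probes named). To be tested, a probe had to exceed background clearly in 3 or more of the 11 animals (15712 probes), or in 2 or more of the 4 RNAs on chip 5 (15290). The 8 differences from the horned animals were fitted by generalized least squares on horn type and sex, leaving 5 residual degrees of freedom; the chip is the block there, and the shared horned animal is in the covariance. The labels' chip numbers pair the animals, since arrays compare animals of 1 chip directly. Site values were the mean of 2 animals against 0, with 1 residual degree of freedom. Variances were moderated with limma's squeezeVar and p-values adjusted by Benjamini-Hochberg over all probes tested. The fit was also run on simulated data in which no animal stood apart, so that run does not bear on an outlying animal. P-values rest on the spread between these animals, moderated over all probes, with 1 biopsy of each site.

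Members, lists and tests were chosen with earlier results of these data known. Named with fitted values were TOP2A, PCNA and CDK1, in each comparison the 4 members of lowest p and the 2 of largest difference in each class, and in other cell cycle lists up to 3 genes of lowest p; MKI67 was to be named but has no probe. Probes whose file entries point to different genes were left out: 1 each for FEN1, CENPE and PTTG1. Genes named for an animal's pattern, or as called without an animal or a chip, were chosen after their values were seen. Alternatives were the scanner's processed signals, median centring, other filters, all spots, all probes of a gene, no sex term, no block and leaving out each chip and animal. Promoters and proteins were not analysed here.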

Additional observations from a re-analysis of the deposited data

Results flagged for a closer look

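Dixon's criterion was applied to 34 sets of 4 values, which were 15 genes and 2 class medians in polled and in scurred animals. Scurred replicate 1 is in the scurred sets alone. In 4 of those it lay farther from the other 3 scurred animals than the criterion allows. Against the horned animals, its values were 1.71 for TOP2A, 0.39 for MCM6, 1.10 for the median of replication genes and 1.77 for the median of mitosis genes. Chance alone marks about 1 set in 20, and these sets share animals. At the horn site, 2 genes went opposite ways in the 2 animals, and the difference between the animals was not tested. TPX2 was at 0.087 in polled replicate 3 and at -0.14 in scurred replicate 2, and HMGB2 at 0.017 and -0.66.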

How the results depend on the processing

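At the horn site, the count of genes under an unadjusted p of 0.05 was 31 to 37 under the other settings. With the scanner's processed signals the mitosis median was -0.72, and with median centring, which moved the median of all probes to -0.15, the mitosis and replication medians were -0.72 and -0.73. BUB1B (0.065) and TPX2 (0.14) changed sign with centring, and CCNE2 with all its probes averaged (-0.11). Each animal alone gave medians of -0.58 to -0.56 in mitosis and -0.48 to -0.41 in replication. Between animals, with no replicate block the count was 0 in all 4 comparisons, and the calls changed under no setting other than leaving out a chip or an animal. PCNA in scurred against horned changed sign with processed signals (-0.11), centring (-0.093), no sex term (-0.014) and no replicate block (-0.012). Ranges that follow are for leaving out each chip, then for each animal. The counts were 0 to 6 and 0 to 4 for polled against horned, 0 to 8 and 0 to 7 for scurred against horned, 0 to 2 (1 without chip 4) and 0 to 3 for scurred against polled, and 0 to 3 and 0 to 2 for male against female. The shares of all probes called ran, in the same order, from 1.55% to 11.8% and 2.28% to 12.9%, from 2.3% to 6.59% and 2.23% to 7.68%, from 1.1% to 9.54% and 1.63% to 9.06%, and from 1.09% to 4.32% and 1.52% to 4.72%. For polled against horned the replication median ran from -0.45 to -0.04 and from -0.35 to 0.10, and the mitosis median from -0.48 to 0.03 and from -0.18 to 0.39. For male against female without each chip they ran from -0.38 to 0.17 and from -0.52 to 0.39. In polled against horned TOP2A ran from -0.78 to 0.033 and from -0.59 to 0.38, and without each animal CDK1 ran from -0.54 to 0.56, PCNA from -0.27 to 0.012, TYMS from -0.81 to 0.078 and KIF20A from -0.75 to 0.20. In scurred against horned TOP2A ran from -0.28 to 0.53 and from -0.53 to 0.63, CDK1 from -0.065 to 1.16 and from -0.11 to 1.17, PCNA from -0.13 to 0.11 (-0.0098 without chip 3) and from -0.12 to 0.11, RRM2 from -0.65 to 0.75 and from -0.55 to 0.71, and CCNB1 from -0.021 to 0.92 and from -0.33 to 1.12. In scurred against polled TOP2A ran from -0.32 to 1.31 and from -0.25 to 0.67, RRM2 from -0.22 to 1.54 and from -0.25 to 0.76, and CCNE2 from -0.51 to 0.24 and from -0.50 to 0.085. In male against female TOP2A ran from -0.62 to 0.60 and from -0.22 to 0.63, CDK1 from -1.10 to 0.33 (-0.019 without chip 1) and from -0.18 to 0.58, PTTG1 from -0.14 to 0.66, CCNB1 from -0.021 to 1.02 and RRM2 from -0.44 to 0.68 without each chip, and PCNA from -0.32 to 0.0023 without each animal. The causes were not tested. Probes near background limit MCM3, KIF11, BUB1B, NUF2 and TPX2.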
